A study of Mus musculus with 63 samples.

Results

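Genes of T cells and natural killer (NK) cells were followed across lymph node lymphomas of Emu-myc mice, in which the tumour cells themselves are of the B lineage. The set was a fixed list of 35 genes, of which 33 had a probe set with a single gene symbol and could be measured, out of 19938 genes on the array. Where a gene had several such probe sets the brightest on average was to be read, but each of the 33 had just 1. Of the 33 genes, 21 are T-cell genes and 12 are NK-cell and cytotoxic genes. Lck and Tcf7 were listed and were not analysed here.

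T cells recognise antigen through a receptor whose signal passes through the CD3 chains and the zeta chain to the kinase Zap70 and the adaptor Lat. CD4 and CD8 mark helper and cytotoxic T cells, and CD28, ICOS and CTLA-4 raise or lower the strength of activation. NK cells lack that receptor and use others, such as NKp46 (Ncr1), NKG2D (Klrk1) and the CD94 family (Klrd1). Cytotoxic T cells and NK cells share a killing apparatus of perforin and granzymes, so most of the genes grouped here under NK cells are also used by CD8 T cells. A lymph node that holds a B-cell lymphoma still contains such lymphocytes, and whole-tissue RNA carries their transcripts beside those of the tumour. In bulk samples of this kind, fewer cells of a type and less RNA per cell cannot be told apart.

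All 63 arrays were of lymphomas of the Emu-myc transgenic model on the C57BL/6 background, in which an immunoglobulin enhancer drives Myc in B-lineage cells. The CTX 4h group held 31 arrays of lymphomas sampled 4 h after the alkylating drug cyclophosphamide. Of these, 2 were labelled from 300 ng RNA, with no dose stated, and 29 from 100 ng RNA, with a stated single intraperitoneal dose of 300 mg/kg. The native group held 32 arrays of untreated lymphomas, 17 labelled from 300 ng and 15 from 100 ng. The labels describe both transplanted recipients and transgenic mice as the source of treated cells, so the host of the CTX 4h lymphomas is not settled, and the series text speaks of untreated samples alone. Cells went into RNA extraction without purification, per the labels of the 100 ng arrays, and the arrays of the 2 groups carry different lymphoma numbers, so no array has a partner in the other group. The 100 ng arrays were further split by whether the lymphoma number starts with 1, 8 or 9. The CTX 4h and native arrays then numbered 6 and 7, 9 and 3, 14 and 5 in these sets, and 2 and 17 at 300 ng.

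The deposited values are log2 expression values, on which a difference of 1 is a doubling. B-cell genes were measured in every array. Cd79b, a chain of the B-cell receptor complex, spanned 12.37 to 13.44 in CTX 4h and 12.38 to 13.43 in native arrays, while its partner Cd79a spanned 9.16 to 13.03 and 8.38 to 12.99. The B-cell factor gene Ebf1 spanned 8.45 to 12.24 in CTX 4h and 8.09 to 12.41 in native arrays, so some lymphomas read far lower for these genes. Native replicates 8 and 19 stood apart with the lowest proliferation scores of the native arrays, at -1.92 and -2.09, where a score is the mean of a list of genes after each is centred on its mean over all arrays. A score of 60 small nucleolar and other small RNA genes differed strongly between sets, with a median of -1.15 in CTX 4h and -1.30 in native arrays numbered from 1, against 0.92 and 0.23 at 300 ng. Where nothing states that arrays came from separately handled animals, p-values measure only the spread between these arrays.

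The start regions of 23 of the 33 genes, in 27 windows, were found in a RefSeq table of 32851 windows of assembly GRCm38.p6 that run from 250 bases before to 50 bases after a start. Windows are shown for 4 genes on which the results turn. Cd3e and Nkg7 served as the yardsticks for the T and NK genes, Cd27 was the T-cell gene most like Cd3e, and Ncr1 was the only gene of the set that passed the test of CTX 4h against native over all arrays. Capitals mark matches, on either strand, to short core motifs of factor families active in lymphocytes: GGAAGT (ETS family) in Cd3e, CTTTGA (TCF/LEF family) in Cd27, TGTGGT (RUNX family) in Nkg7 and Ncr1, and GGTGTGA (T-box family) in Nkg7.
Cd3e: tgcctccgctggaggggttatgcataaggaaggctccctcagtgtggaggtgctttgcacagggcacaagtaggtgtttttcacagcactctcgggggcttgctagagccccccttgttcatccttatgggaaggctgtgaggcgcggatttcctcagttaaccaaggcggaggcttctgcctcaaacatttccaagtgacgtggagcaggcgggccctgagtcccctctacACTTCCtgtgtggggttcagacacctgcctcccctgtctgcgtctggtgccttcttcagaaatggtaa
Cd27: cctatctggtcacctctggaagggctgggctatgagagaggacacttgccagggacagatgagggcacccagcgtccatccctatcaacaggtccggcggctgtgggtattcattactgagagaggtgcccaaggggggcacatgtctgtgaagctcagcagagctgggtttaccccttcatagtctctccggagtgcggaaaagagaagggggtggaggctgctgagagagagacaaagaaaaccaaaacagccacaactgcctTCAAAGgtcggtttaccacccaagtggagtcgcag
Nkg7: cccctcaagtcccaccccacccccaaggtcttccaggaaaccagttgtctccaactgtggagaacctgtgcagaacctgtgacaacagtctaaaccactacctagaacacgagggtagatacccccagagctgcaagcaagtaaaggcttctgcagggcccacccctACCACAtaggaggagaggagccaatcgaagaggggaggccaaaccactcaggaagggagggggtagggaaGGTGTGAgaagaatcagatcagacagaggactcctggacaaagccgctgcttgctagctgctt
Ncr1: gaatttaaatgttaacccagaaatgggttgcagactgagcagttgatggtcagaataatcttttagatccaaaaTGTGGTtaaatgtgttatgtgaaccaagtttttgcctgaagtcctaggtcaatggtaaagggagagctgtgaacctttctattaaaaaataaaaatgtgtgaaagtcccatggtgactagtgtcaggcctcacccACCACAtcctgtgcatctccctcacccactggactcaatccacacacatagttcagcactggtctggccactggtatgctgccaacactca
The Cd3e window lies at chr9:45009562-45009861 on the minus strand, and that of Cd27 at chr6:125236978-125237277 on the minus strand. The Nkg7 window lies at chr7:43436888-43437187 and the Ncr1 window, the first of 2 overlapping windows listed for that gene, at chr7:4337465-4337764, both on the plus strand. The RUNX letters occurred in 37.0% of the set's windows and in 16.8% of all windows, and the TCF/LEF letters in 33.3% and 16%. For the ETS letters the shares were 33.3% and 23.8%, for the T-box letters 11.1% (3 windows) and 3.98%, and for the GATA letters AGATAA 7.41% (2 windows) and 11.2%. None of these motifs overlaps another in the windows shown, and a match describes letters, not a bound site. The 3 CD3 chain genes are neighbours on chromosome 9: the starts of Cd3d and Cd3g lie 1355 bases apart and run in opposite directions, and that of Cd3e lies 27825 bases from the start of Cd3d.

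The T and NK genes varied widely from lymphoma to lymphoma. Over the 32 native arrays the median standard deviation was 0.774 on the log2 scale for the 21 T-cell genes and 0.627 for the 12 NK-cell and cytotoxic genes, against 0.316 for all 19938 genes. All 33 had a standard deviation above that median of all genes. Their median span between the lowest and highest native array was 3.36 log2 units, against 1.49 for all genes. The widest span was that of Cd3g, which covered 49.0-fold, and the narrowest that of the receptor gene Klrk1, at 3.04-fold. The CTX 4h and native ranges overlapped for 33 of 33 genes, as they did for all 19938 genes.

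**Figure D1:**
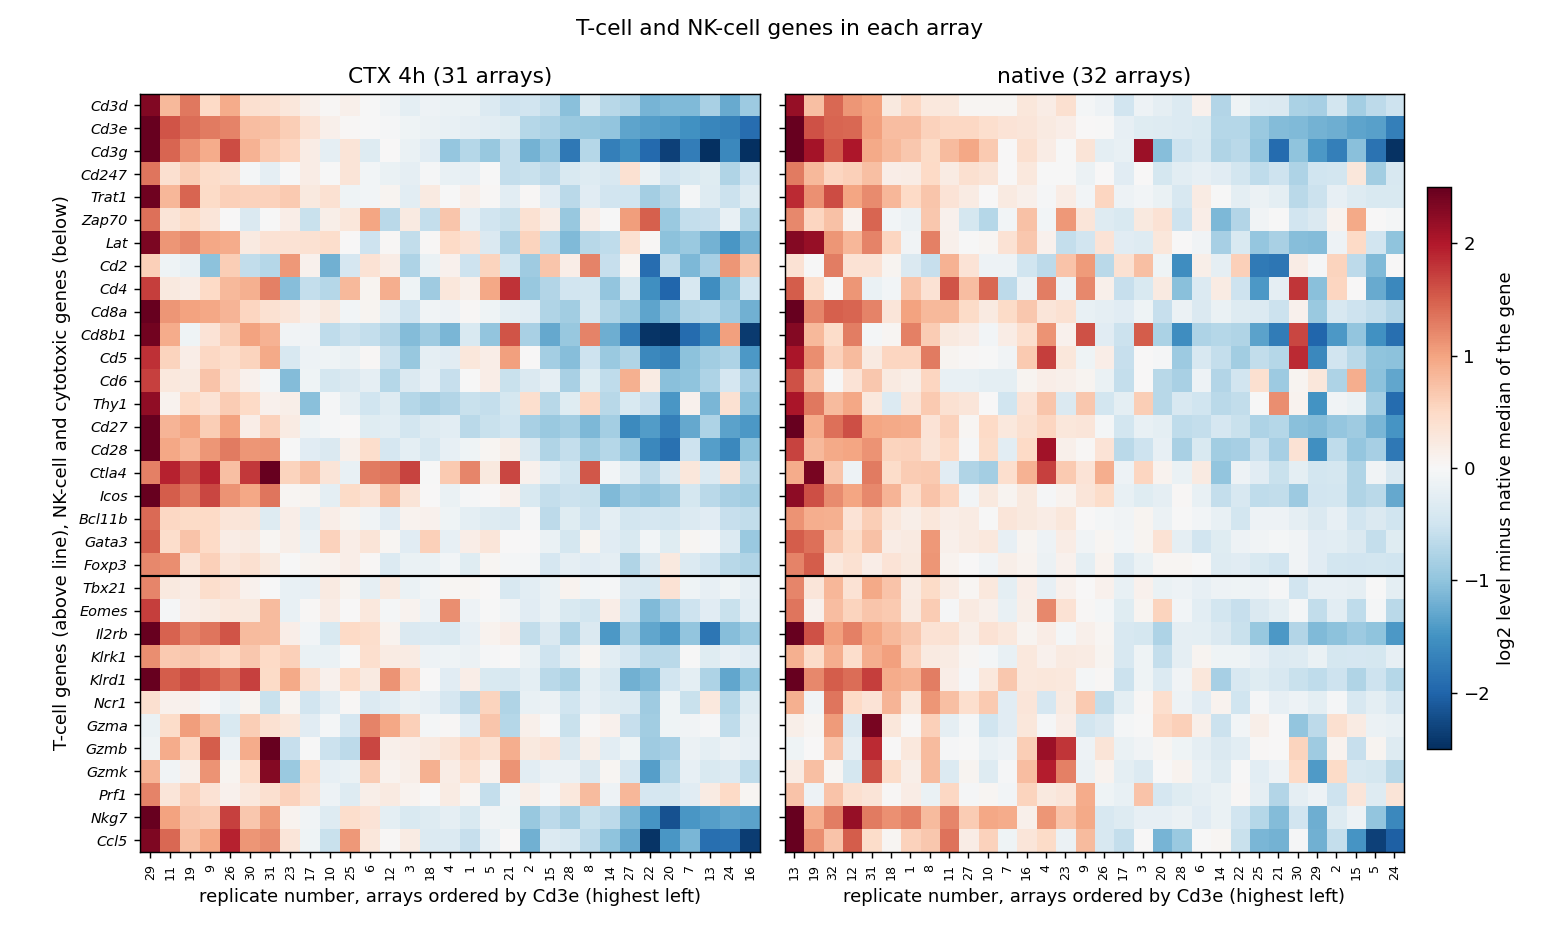
Log2 level of each of the 33 genes (rows) in each array (columns) minus the gene's native median, with 31 CTX 4h arrays on the left and 32 native arrays on the right, each ordered by Cd3e. Most rows shade from red to blue with Cd3e in both panels, while Cd2, Zap70 and the granzyme genes follow the order less closely.

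The CD3 chains set the pattern. Cd3e, the signalling chain that every mature T cell carries, had a lowest, median and highest level of 7.02, 8.75 and 11.73 in CTX 4h arrays, and of 7.23, 8.93 and 11.54 in native arrays. Cd3g, its partner chain, read 5.68, 7.80 and 11.86 in CTX 4h arrays and 5.92, 8.40 and 11.53 in native arrays. In both genes the ranges of the groups covered each other almost wholly. Cd3d, the third CD3 chain, spanned 8.12-fold over native arrays, Cd247, the zeta chain, 4.49-fold, and Trat1, an adaptor bound to the receptor, 5.80-fold. The kinase Zap70 spanned 5.93-fold and the adaptor Lat 10.4-fold.

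Among surface markers, Cd8a and Cd8b1, the chains of the CD8 co-receptor, spanned 15-fold and 19.6-fold over native arrays. Cd4, the helper co-receptor, had a lowest, median and highest level of 6.93, 8.51 and 10.72 in CTX 4h arrays and of 7.30, 8.92 and 10.69 in native arrays. Thy1, a surface glycoprotein of mouse T cells, spanned 15.5-fold, Cd5, a receptor that restrains antigen signals, 12.5-fold, and its relative Cd6 7.39-fold. Cd2, an adhesion receptor that mouse B cells carry too, spanned 8.45-fold. Among co-stimulatory genes, Cd27, a TNF-family receptor, read 5.63, 6.87 and 10.27 in CTX 4h arrays and 5.87, 7.34 and 10.17 in native arrays. Cd28, which gives the main co-stimulus, spanned 14.8-fold and Icos, an inducible co-stimulator, 11.5-fold over native arrays. The transcription factors had the narrower spans: 3.08-fold for Bcl11b, which keeps T-cell identity, 4.28-fold for Gata3, a helper factor, and 4.02-fold for Foxp3, the regulatory T-cell factor.

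Nkg7, a protein of cytotoxic granules, spanned 34.4-fold over native arrays, with 5.61, 7.47 and 11.32 in CTX 4h arrays and 6.18, 7.79 and 11.28 in native arrays. Ccl5, a chemokine released by activated cytotoxic cells, read 7.80, 9.92 and 12.60 in CTX 4h arrays and 7.93, 10.26 and 12.99 in native arrays. Il2rb, a receptor chain for interleukins 2 and 15, read 5.76, 7.21 and 10.41 in CTX 4h arrays and 6.12, 7.55 and 10.07 in native arrays. The spans of these 3 genes lay between those of Cd3d and Cd3g. Klrd1 (CD94) spanned 10.3-fold, and the factors Eomes and Tbx21 (T-bet), which drive cytotoxic programmes, 4.06-fold and 3.25-fold. Ncr1, the receptor that marks NK cells most narrowly, spanned 3.84-fold. Prf1 (perforin) spanned 3.15-fold. The granzyme genes Gzma, Gzmb and Gzmk, which encode the killing proteases, spanned 10.3-fold, 8.20-fold and 10.4-fold.

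A few arrays held most of the extremes. CTX 4h replicate 29 was the highest CTX 4h array for 25 of the 33 genes, and native replicate 13 the highest native array for 21. Their mean scores were 2.07 (T) and 1.44 (NK) in CTX 4h replicate 29, and 1.87 and 1.32 in native replicate 13. Both arrays were among those numbered from 1. At the low end, CTX 4h replicates 22 and 20 were lowest for 10 and 8 genes, and native replicates 24 and 29 for 13 and 6. The granzymes peaked elsewhere. Gzmb was highest in CTX 4h replicate 31 (8.85) and native replicate 4 (8.28), and Gzmk in the same arrays (8.65 and 8.32), while in native replicate 13 Gzmb read 6.03 and Gzmk 6.56. Gzma was highest in native replicate 31, at 8.03, against a native median of 5.66. Native replicate 3 had a Cd3g level of 10.54, near the top of the group, with a Cd3e level of 8.63, below its native median.

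Most of the set varied together with Cd3e from lymphoma to lymphoma. Over the native arrays Pearson's r with Cd3e had a median of 0.82 for the 20 other T-cell genes and 0.80 for the 12 NK-cell and cytotoxic genes, against -0.01 for all genes, as a description of arrays that share their processing. It exceeded 0.7 over CTX 4h arrays for 13 of 20, 6 of 12 and 1.40% of all genes, and over native arrays for 13 of 20, 7 of 12 and 1.28%. T and NK genes did not separate from each other: the median r between a T-cell and an NK-cell gene was 0.588 over CTX 4h arrays and 0.614 over native arrays, against 0.690 and 0.667 among T-cell genes and 0.489 and 0.547 among NK-cell and cytotoxic genes. Closest to Cd3e were Il2rb (0.98), Cd27 (0.97) and Icos (0.96). Bcl11b (0.93), Cd3d, Cd8a, Klrd1 and Nkg7 (each 0.92), Cd3g and Trat1 (each 0.91) came next. Least close were Cd2 (0.36), Gzma (0.31) and Gzmb (0.29).

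**Figure D2:**
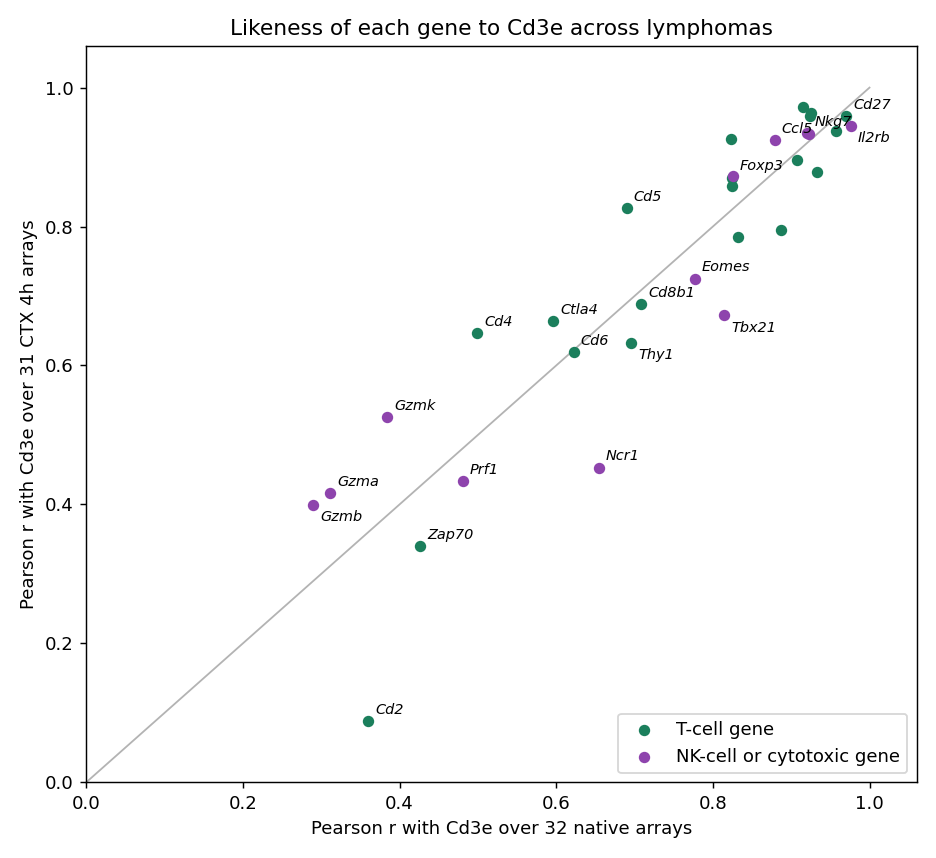
Pearson r of each gene with Cd3e over 31 CTX 4h arrays (vertical axis) against that over 32 native arrays (horizontal axis), with T-cell genes in green, NK-cell and cytotoxic genes in purple, and the grey line at equal values. Il2rb, Cd27 and Nkg7 lie at the top right, the granzyme genes, Prf1 and Zap70 at the lower left, and Cd2 lies at 0.09 over CTX 4h arrays.

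Of 20 gene pairs listed for testing, 19 could be measured, and 16 passed over native arrays by Pearson's r and 14 by Spearman's rho (permutation p, Benjamini-Hochberg adjusted over the 19). Cd3e and Nkg7 had r = 0.93 over CTX 4h arrays, and over native arrays r = 0.92 and rho = 0.89 (permutation p = 1e-05, the smallest that 100000 permutations give; adjusted 2.37e-05, n = 32). Over native arrays their r was 0.95 with the means of the 4 sets removed, 0.94 within the 300 ng arrays, 0.96 within the 100 ng arrays, and 0.88 without the 2 arrays farthest from the Cd3e median. Cd3e and Cd27 had r = 0.97 and rho = 0.97, and Cd3e and Foxp3 r = 0.82 and rho = 0.89 (permutation p = 1e-05 each, adjusted 2.37e-05). The same p held for Cd3e with Cd3g (r = 0.91), Cd247 (0.89) and Ccl5 (0.88), for Cd8a with Cd8b1 (0.72) and for Nkg7 with Klrd1 (0.86).

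Ncr1 followed Cd3e less closely, at r = 0.65 and rho = 0.67 (permutation p = 4e-05, adjusted 6.91e-05), and followed Nkg7 at r = 0.67 and rho = 0.66. Cd3e also passed with Cd5 (r = 0.69) and Cd6 (r = 0.62). Cd4 and Cd8a had r = 0.52 and rho = 0.50 (permutation p = 0.00228, adjusted 0.00333). Within the 300 ng arrays their r was 0.44 (adjusted permutation p = 0.0981, n = 17), and within the 100 ng arrays 0.55 (adjusted 0.0412, n = 15). Gzma did not pass with Cd3e, at r = 0.31 and rho = 0.25 (permutation p = 0.0817, adjusted 0.0914). That pair differed between inputs, with r = 0.57 within the 300 ng arrays (adjusted permutation p = 0.0229, n = 17) and -0.06 within the 100 ng arrays (adjusted 0.827, n = 15), a difference that was not itself tested. Gzma and Gzmb passed at r = 0.49 and rho = 0.48 (permutation p = 0.00905, adjusted 0.0123). That relation rested in part on 2 arrays: without the 2 farthest from the Gzma median r was 0.21 (adjusted permutation p = 0.301, n = 30).

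The genes outside the set most like Cd3e over native arrays were Cd96, an adhesion receptor of T and NK cells (r = 0.98), Prkcq, the T-cell protein kinase C theta (0.97), and Dapl1 (0.95). They were followed by Themis, a T-cell signalling protein, and Ms4a4b (each 0.93), and by Cd226, an activating receptor, Il21r, an interleukin receptor, and the T-cell receptor segment Trgv1 (each 0.92). Most like Nkg7 were Cd96 (0.94), Dapl1 (0.93), Sema4a and Ctsw (each 0.92) and Cst7 (0.89), with Ctsw and Cst7 encoding cathepsin W and cystatin F of cytotoxic cells. Ccl19 (0.87), Ms4a4b (0.86) and Prkcq (0.85) completed the 8. Mouse Ccl19 has near-identical copies in the genome, so its value is uncertain.

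Genes of other cell types were read beside these. The mature B-cell score moved with Cd3e at r = 0.87 over CTX 4h arrays and 0.89 over native arrays, and 6 of its 7 measured genes had r above 0.5 over native arrays. Among these were Ltb (0.88), a cytokine gene that T cells also express, the B-cell receptors Fcer2a (0.82) and Cr2 (0.81), and the homing receptor gene Cxcr5 (0.73). CTX 4h replicate 29 and native replicate 13, the arrays richest in T and NK transcripts, had mature B-cell scores of 2.08 and 1.74. The pan-B score moved with Cd3e at r = 0.04 over CTX 4h arrays and 0.28 over native arrays, with 0 of 9 genes above 0.5. Cd79a, a further chain of the B-cell receptor complex, did not pass as a pair with Cd3e, at r = 0.25 and rho = 0.18 (permutation p = 0.161, adjusted 0.161).

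A list of 8 thymus genes had a median r of -0.06 with Cd3e over native arrays, against -0.01 for all genes. Of these 8 genes 7 lay below 0, down to -0.16 (Ptcra), and Aire read 0.47. The dendritic cell score had r = 0.71 over CTX 4h arrays and 0.55 over native arrays, the score of stroma and endothelium 0.58 and 0.63, and the macrophage score 0.31 and 0.13. Of the 13 macrophage genes 6 had r below 0 with Cd3e over native arrays, and the median was 0.04. Csf1r (0.68), Lyz2 (0.49) and Marco (0.44) ran with Cd3e. The lowest r of that list was that of Adgre1, a macrophage surface receptor gene. Adgre1 had r = -0.04 with Cd3e and -0.06 with Nkg7 over CTX 4h arrays. Over native arrays it ran against Cd3e at r = -0.39 and rho = -0.32 (permutation p = 0.027, adjusted 0.0343) and against Nkg7 at r = -0.36 and rho = -0.25 (permutation p = 0.0402, adjusted 0.0478). By rho neither pair passed, and without the 2 arrays farthest from the median the r were -0.32 and -0.15 (adjusted permutation p = 0.106 and 0.423, n = 30). Without native replicates 8 and 19 they were -0.34 each (adjusted permutation p = 0.0822 and 0.0809, n = 30). Col1a1, a collagen of stroma, had r = -0.28 and rho = -0.19 with Cd3e (permutation p = 0.123 after adjustment). Of the 10 stromal genes 3 had r below 0 with Cd3e over native arrays and 3 had r above 0.5, among them Dcn (0.67). The small RNA score had r = -0.05 with Cd3e and -0.26 with Nkg7 over CTX 4h arrays, and -0.39 and -0.56 over native arrays. The part of these cells and of RNA make-up in the T and NK values was not tested.

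Setting CTX 4h against native lymphomas asked whether the residual T and NK transcripts changed within hours of the drug. With RNA input held in the model, 1 of the 33 genes passed at an adjusted p under 0.05, against 2.67% of all genes (limma over all 19938 genes, Benjamini-Hochberg adjusted). None was higher, against 1.41% of all genes, and 1, Ncr1, was lower, against 1.26% of all genes. At an unadjusted p under 0.05 there were 3 of 33, against 17.5% of all genes. Of all genes 46% had a fitted difference above 0, with a median of -0.01. Of the T-cell genes 19 of 21 had a fitted difference below 0, with a median of -0.17. Of the NK-cell and cytotoxic genes 7 of 12 did, with a median of -0.05. These directions are not independent of each other, since most of the genes move together from array to array.

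**Figure D3:**
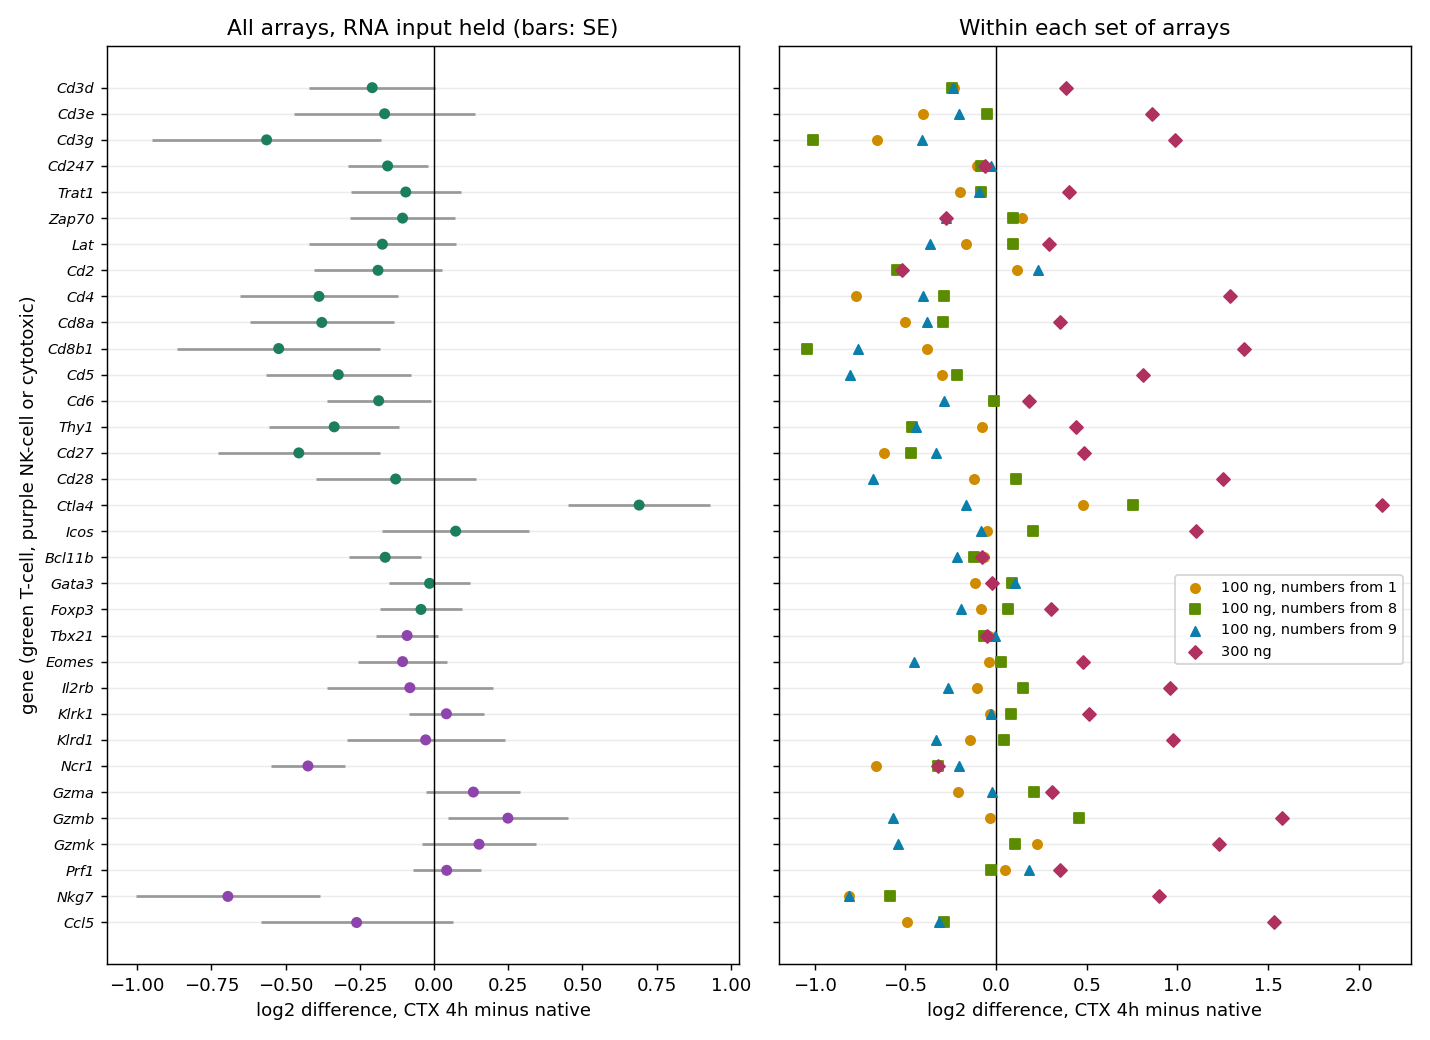
Log2 difference, CTX 4h minus native, for each of the 33 genes over all arrays with RNA input held (left, bars are standard errors) and within each set of arrays (right). Over all arrays the points sit between -0.69 (Nkg7) and 0.69 (Ctla4), and on the right most of the 300 ng points lie to the right of the other sets.

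Ncr1 had a lowest, median and highest level of 4.91, 5.59 and 6.36 in CTX 4h arrays and of 5.19, 5.80 and 7.13 in native arrays. The ranges overlapped, and 8 of 31 CTX 4h arrays lay above the native median. Its mean was 5.58 ± 0.33 in CTX 4h arrays (SD, n = 31) and 5.95 ± 0.50 in native arrays (SD, n = 32), and the fitted log2 difference was -0.42 ± 0.12 (SE, limma adjusted p = 0.0433). All of these levels sit near or below the array medians of 6.53 to 7.11, where the deposited values compress differences. Within the sets the differences were -0.66, -0.32 and -0.20 for numbers starting with 1, 8 and 9 and -0.32 at 300 ng, none of which passed alone. Leaving out each array in turn gave an adjusted p between 0.0271 and 0.0936, and the call was lost in 19 of 63 cases. It was also lost without the RNA input term (adjusted p = 0.0576), with the sets as a term (0.151) and with the small RNA score as a further term (difference -0.31, adjusted p = 0.441).

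Ctla4, the inhibitory receptor of activated and regulatory T cells, was the T-cell gene with the smallest p. It read 5.76, 7.0 and 9.43 in CTX 4h arrays and 5.45, 6.45 and 8.81 in native arrays, and 21 of 31 CTX 4h arrays lay above the native median. Its difference of 0.69 ± 0.24 did not pass (SE, limma adjusted p = 0.102). It did with array weights (0.94, adjusted p = 0.00202) and without native replicates 8 and 19 (0.75, adjusted p = 0.0296). With each array left out in turn, it passed in 1 of 63 cases, without native replicate 4 (0.80, adjusted p = 0.0472). The difference was 0.53 without CTX 4h replicate 31 (adjusted p = 0.267) and 0.63 without replicate 30 (adjusted p = 0.212), the 2 CTX 4h arrays at 300 ng. With the macrophage and stroma scores held it was 0.31 (adjusted p = 0.484). Nkg7 differed by -0.69 ± 0.31 (SE, adjusted p = 0.227), and 10 of 31 CTX 4h arrays lay above its native median. Cd3e differed by -0.17 ± 0.30 (SE, adjusted p = 0.818), so the level of the defining T-cell chain was not shown to change. The larger negative differences that did not pass were -0.56 for Cd3g, -0.52 for Cd8b1 and -0.46 for Cd27. Gzmb, Gzmk and Gzma read 0.25, 0.15 and 0.13, and Foxp3 -0.04.

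Other cell types differed in the same comparison, and their part in the T and NK values was not tested. Of the macrophage list 13 of 13 genes had a difference above 0, against 46% of all genes, with a median of 0.40. In that list Cd14, a receptor for bacterial lipopolysaccharide, and Fcgr1, an Fc receptor, rose by 0.96 and 0.51 (limma adjusted p = 1.87e-05 and 0.0115). In the stromal list 4 of 10 genes passed as higher, against 1.41% of all genes. Among them were Col3a1 (0.59), Col1a1 (0.60) and Pdpn (0.45), with limma adjusted p = 0.0142, 0.0144 and 0.023. In the proliferation list 2 of 5 passed as lower, against 1.26% of all genes. These were Aurka (-1.03) and Plk1 (-1.23), with limma adjusted p = 0.00549 and 0.00624. The pan-B, mature B and precursor B lists had medians of -0.27, -0.41 and -0.48, with no gene past the test.

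Read within sets, no gene of the 33 passed in any of the 3 sets of 100 ng arrays. Across all genes, 0.01% passed in the arrays numbered from 1, 0.00502% in those from 8 and 0% in those from 9. At an unadjusted p under 0.05 there were 1, 0 and 0 of the 33 genes, against 1.71%, 3.26% and 8.9% of all genes. The medians of the T-cell genes were -0.12, -0.08 and -0.27 in these sets and those of the NK-cell and cytotoxic genes -0.07, 0.03 and -0.29. At 300 ng the medians were 0.40 and 0.71, with 26 of 33 genes above 0, against 39.2% of all genes. These directions too are not independent of each other. The mean T scores of the 2 CTX 4h arrays were 0.51 and 0.55, within the native range of -0.99 to 1.17 at 300 ng. Their NK scores were 0.58 and 0.78, within the native range of -0.76 to 1.07. In this set 1 gene passed, against 1.04% of all genes. That gene was Ctla4. It read 8.22 and 9.43 in the 2 CTX 4h arrays at 300 ng, replicates 30 and 31, and had a lowest, median and highest level of 5.69, 6.33 and 8.81 in the 17 native arrays at 300 ng. Replicate 31 lay above every native array of that set and replicate 30 within their range. The difference was 2.13 ± 0.57 (SE, limma adjusted p = 0.0402), and in the other sets Ctla4 read 0.48, 0.75 and -0.17. Without replicate 30 the difference was 2.73 (adjusted p = 0.228) and without replicate 31 it was 1.52 (adjusted p = 0.70). In both cases a lone CTX 4h array is left, which the model assumes to vary like the other groups, so the loss of the call says little about its stability.

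Gzmb at 300 ng read 7.06 and 8.85 in CTX 4h replicates 30 and 31 and 5.24, 6.14 and 7.99 (lowest, median and highest) in native arrays. Its difference of 1.57 ± 0.45 did not pass (SE, limma adjusted p = 0.0682), and passed without native replicates 8 and 19 (1.56, adjusted p = 0.0448). Without replicate 31 the difference was 0.68, and without replicate 30 it was 2.47, with a lone CTX 4h array left in both cases. Gzmk differed by 1.23, Cd4 by 1.29, Cd8b1 by 1.37, Cd28 by 1.25 and Ccl5 by 1.53 in the same set without passing. Beside these values, the macrophage score was 0.89 and 1.28 in the 2 CTX 4h arrays, against -0.50 to 0.41 in the native arrays at 300 ng. The stromal score was 0.53 and 0.73, against -0.72 to 0.38. The pan-B score was -0.85 and -0.63, against -1.35 to 0.65. With 2 arrays and no stated dose in this group, the part of these differences in the Ctla4 and Gzmb values was not tested.

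**Figure D4:**
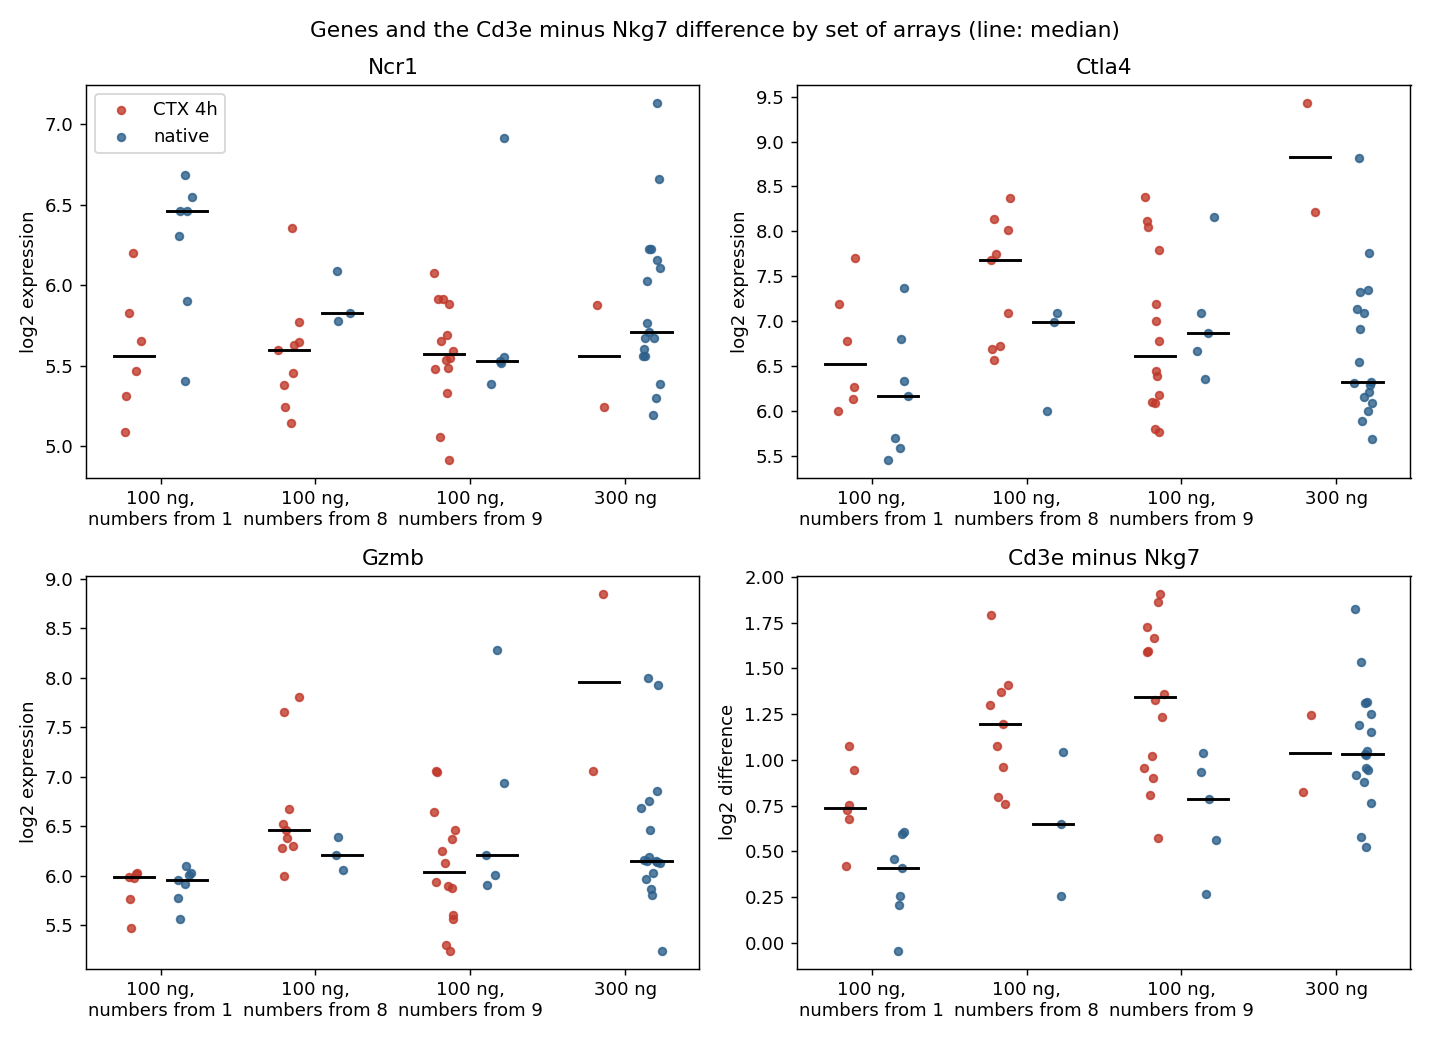
Log2 expression of Ncr1, Ctla4 and Gzmb, and the per-array difference Cd3e minus Nkg7, in CTX 4h (red, left of each pair) and native arrays (blue, right), by set of arrays. Points are arrays and black lines medians. Ctla4 and Gzmb are highest in CTX 4h replicate 31, at 300 ng, and the median of Cd3e minus Nkg7 is higher in CTX 4h arrays in the 3 sets at 100 ng.

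The effect at 300 ng minus the mean effect at 100 ng was tested in the same model. It was above 0 for 29 of 33 genes, with a median of 0.74, against a median of -0.05 for all genes. No gene of the set passed, against 0.0401% of all genes (0.0251% higher and 0.015% lower, limma, Benjamini-Hochberg adjusted), and 7 of 33 had an unadjusted p under 0.05, against 8.69% of all genes. The smallest adjusted p was that of Gzmb (1.62 ± 0.50 SE, adjusted p = 0.251), and Ctla4 read 1.77 ± 0.62 (SE, adjusted p = 0.359). In native arrays, 300 ng minus 100 ng had a median of -0.12 over the 33 genes, with 25 below 0, while 51.8% of all genes lay above 0. None of the 33 passed the test, against 0.396% of all genes (0.311% higher and 0.0853% lower). At an unadjusted p under 0.05 there was 1 of 33, against 10.2% of all genes, namely Cd4 (-0.60 ± 0.30 SE, adjusted p = 0.488). Cd4 had a median of 8.77 in native arrays at 300 ng, and of 10.13, 9.46 and 8.57 in those at 100 ng with numbers starting with 1, 8 and 9.

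The T-cell gene Cd3e was set against the cytotoxic gene Nkg7 as the difference Cd3e minus Nkg7 in each array. Over native arrays Nkg7 had r = 0.95 with Cd27, 0.91 with Cd8a, 0.86 with Klrd1 and 0.67 with Ncr1. The difference therefore compares 2 genes and does not measure the balance of T and NK cells. Its size is set by the 2 probe sets, so only its change between groups was compared. It had a lowest, median and highest value of 0.42, 1.07 and 1.91 in CTX 4h arrays and of -0.04, 0.90 and 1.83 in native arrays. The mean was 1.16 ± 0.40 in CTX 4h arrays (SD, n = 31) and 0.82 ± 0.42 in native arrays (SD, n = 32), with overlapping ranges. Within sets the difference between groups was 0.43 (2-sided permutation p = 0.00014 with treatment permuted within sets, adjusted 0.00028 over the 2 differences tested). The tests were chosen with earlier results of these data known, and Nkg7 had the lowest fitted difference of the gene set over all arrays (-0.69). The adjustment over 2 differences takes no account of that choice. Over these arrays Nkg7 was lower relative to Cd3e after CTX, although neither gene passed on its own. The mean was 0.77 in CTX 4h and 0.35 in native arrays numbered from 1, 1.18 and 0.65 from 8, 1.32 and 0.72 from 9, and 1.03 and 1.07 at 300 ng, so the native level itself differed between sets. The difference was 0.41 in the arrays numbered from 1 (exact permutation p = 0.00816), 0.54 from 8 (exact p = 0.0455), 0.61 from 9 (exact p = 0.0107) and -0.04 at 300 ng (exact p = 0.889). Adjusted over the 4 sets these exact p were 0.0214, 0.0607, 0.0214 and 0.889. Leaving out each array in turn gave 0.39 to 0.49, with a permutation p under 0.05 in 63 of 63 cases.

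**Figure D5:**
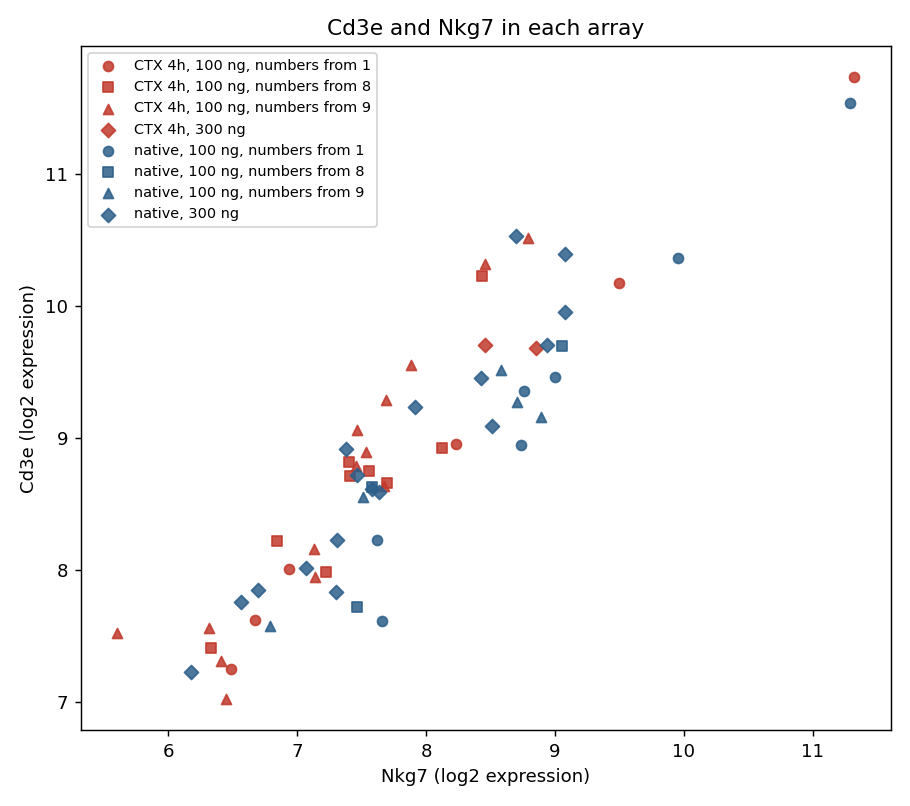
Cd3e (vertical axis) against Nkg7 (horizontal axis) in each array, both as log2 expression, with CTX 4h in red, native in blue and marker shapes for the sets of arrays. The arrays lie along 1 band in both groups, with CTX 4h replicate 29 and native replicate 13 at the top right, and the red points tend to lie above the blue points at the same Nkg7.

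The same reading with the other 11 NK-cell and cytotoxic genes in place of Nkg7 is given as values only, with no test. In the arrays numbered from 1, Cd3e minus the gene differed between CTX 4h and native arrays by -0.63 (Gzmk) to 0.26 (Ncr1). In those numbered from 8 the span was -0.51 (Gzmb) to 0.27 (Ncr1), and in those from 9 it was -0.39 (Prf1) to 0.36 (Gzmb). At 300 ng it was -0.71 (Gzmb) to 1.18 (Ncr1). Pooled over all arrays, only Nkg7 (0.34) and Ncr1 (0.19) were above 0, and the remaining genes read -0.27 (Prf1) to -0.04 (Ccl5). In the arrays numbered from 1, all of the 11 genes but Ncr1 and Ccl5 were below 0. Of the 11 genes, Ccl5 alone was above 0 in each of the 3 sets at 100 ng, at 0.09, 0.24 and 0.11, and read -0.67 at 300 ng. Ncr1 read 0.26, 0.27 and -0.00097 in the sets at 100 ng. The small RNA score moved with Cd3e minus Nkg7 at r = 0.60 over CTX 4h arrays and 0.52 over native arrays, with the 4 sets pooled. Both this score and the difference varied between sets, and the part of the sets in these r was not tested. The mean small RNA score was also higher in CTX 4h than in native arrays within each set. It was -1.19 and -1.34 in arrays numbered from 1, 0.50 and 0.01 from 8, 0.52 and 0.03 from 9, and 0.92 and 0.17 at 300 ng. Permuting treatment within sets does not remove such a difference. With that score as a further term, added after the data had been seen, the difference was 0.36 (permutation p = 0.00088). Cd4 minus Cd8a sets a helper gene against a cytotoxic T-cell gene and does not measure the balance of these cells. Over native arrays Cd4 had r = 0.50 with Cd3e, and Cd8a had 0.92. Cd4 minus Cd8a had a lowest, median and highest value of -0.21, 1.13 and 3.21 in CTX 4h arrays and of -0.34, 0.88 and 2.83 in native arrays. It differed by 0.07 within sets (2-sided permutation p = 0.793, adjusted 0.793), and by -0.27, 0.01, -0.02 and 0.94 in the arrays numbered from 1, 8 and 9 and at 300 ng (exact permutation p = 0.571, 1.0, 0.913 and 0.14). Leaving out each array in turn gave -0.03 to 0.16.

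Further genes of these lineages, from 4 lists outside the set, gave no call in CTX 4h against native arrays (0 of 64 genes by limma at an adjusted p under 0.05, against 2.67% of all genes, and 4 at an unadjusted p under 0.05, against 17.5%). Of 17 T-cell signalling genes 2 had a difference above 0, against 46% of all genes, with a median of -0.17 for the list. Those with the smallest p were Tespa1 (-0.40), Ptprcap (-0.17) and Ubash3a (-0.47). Over native arrays these 3 genes followed Cd3e weakly or not at all, at r = 0.40, -0.02 and 0.28. Genes of naive T cells and homing had a median of -0.10 over 9, with Dapl1 at -0.64, the egress receptor S1pr1 at 0.21 and the interleukin 7 receptor Il7r at -0.51. Il7r was also in the precursor B list and had r = 0.34 with Cd3e over native arrays. Genes of activated T cells had a median of 0.02 over 18, with Rora at 0.22, the inhibitory receptor Pdcd1 at 0.36 and Il2ra, the high-affinity chain of the interleukin 2 receptor, at -0.52. Other NK-cell and cytotoxic genes had a median of -0.04 over 21, with the NK receptor Klrb1c at -0.30, the chemokine genes Ccl4 at 0.23 and Xcl1 at -0.17. The adjusted p of these 12 genes lay between 0.196 and 0.462. Over native arrays the scores of these lists had r with Cd3e of 0.95, 0.78, 0.88 and 0.88, and the median r of their single genes was 0.76, 0.50, 0.68 and 0.54.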

How the data were processed

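RNA of 63 lymph node lymphomas was hybridised to Affymetrix expression arrays. The deposited values are log2 expression values made with RMA in Partek 6.5, per the submitters' processing notes. RMA corrects background, normalizes arrays and summarises probes; which arrays it took together is not given in the sources. Scanner files were not used here, and the number of arrays limits the precision.

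The platform annotation gave a single gene symbol for 21789 of 35557 probe sets, several for 1621 and none for 12147. A RefSeq gene ID (GRCm38.p6, used for names and start regions) matched 21698 of the 21789. Where a gene had several single-symbol probe sets, the brightest on average stood for it, which gave 19938 genes. Groups came from the treatment label. The members, lists and tests were chosen with earlier results of these data known.

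Differences were fitted over all genes in R 4.3.3 with limma 3.58.1 (RNA input as a covariate, or a mean per treatment and set, Benjamini-Hochberg adjusted p under 0.05). Pairs and per-array differences were tested by 100000 permutations, and by exact permutation within sets, with Python 3.11.15, numpy 2.4.6 and scipy 1.17.1. On simulated data with the arrays' spread over 19938 genes, the CTX 4h against native model called 79 of 100 genes changed by 0.5, 97 of 100 changed by -1 and 2 of 19738 unchanged genes. Over native arrays the 33 genes of the set had a median standard deviation of 0.761, against 0.316 for all genes. How often a change of 0.5 would be called at that wider spread was not tested.

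Named beside the members are the 8 genes most like Cd3e and the 8 most like Nkg7 over native arrays, up to 3 genes of each other list with the smallest p, and the genes of the 20 pairs. The mature B-cell genes, Cd79b and Ebf1 were named after their values were seen. Alternatives changed the RNA input term, the arrays used, the scaling, the probe set rule, the filter on dim genes and the variance model, or added array weights or scores of small RNA, pan-B, macrophage and stroma genes. The CTX 4h arrays for the pairs, and for the per-array differences the small RNA term and leaving out each array, were added after seeing the data.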

Additional observations from a re-analysis of the deposited data

Results flagged for a closer look

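Each of the 33 genes was screened for an array that lay far from the rest of its group within a set of 4 to 10 arrays, by the gap to its neighbour over the range of the group. Of 132 such tests 13 flagged an array, in 10 genes, where chance flags about 1 in 20, or 6.6. The genes move together, so these tests are not independent.

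In the arrays numbered from 8, CTX 4h replicate 9 was far above the others for 5 genes: Cd8a read 8.73, Icos 9.0, Foxp3 7.71, Tbx21 7.09 and Klrd1 7.80. CTX 4h replicate 4 was far above the others of its set for Eomes, at 7.42. In the arrays numbered from 1, CTX 4h replicate 29 was high for Gata3, at 8.19, and for Eomes, at 7.99, and native replicate 13 was high for Tbx21, at 7.88. In the arrays numbered from 9, native replicate 8 was high for Gata3, at 7.76, and for Ncr1, at 6.92. Without that array the Ncr1 difference in this set was 0.08. Native replicate 5 was far below the others of the same set for Cd3d, at 5.93, and for Ccl5, at 7.93.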

How the results depend on the processing

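No paired analysis was possible because the CTX 4h and native arrays carry different lymphoma numbers, so the groups share no replicate that would tie arrays together.

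The count of 1 member lower in CTX 4h arrays (Ncr1) was 0 without the RNA input term (-0.37, limma adjusted p = 0.0576), in the 100 ng arrays alone (-0.44, 0.126), in the 300 ng arrays alone (-0.32, 0.745), with the sets in place of RNA input (-0.38, 0.151), with the small RNA score (-0.31, 0.441) and with the pan-B score (-0.40, 0.107) as a further term. It was also 0 among genes above the median level, a filter that leaves Ncr1 out. The count of 0 members higher was 1 (Ctla4) with array weights and without native replicates 8 and 19 together. Leaving out each array in turn gave 0 to 1 higher and 0 to 1 lower. Ncr1 was lost without any of CTX 4h replicates 1, 2, 3, 4, 6, 7, 9, 12, 17, 21, 22, 30 and 31 or native replicates 9 to 14. At 300 ng the count of 1 higher was 0 with that set fitted alone (Ctla4 adjusted p = 0.0550), 2 without native replicates 8 and 19 together, and 0 to 1 with a CTX 4h or native array left out. In each of these cases the cause was not tested.

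Signs of the fitted differences over all arrays were the same for 33 of 33 genes with quantile normalization, a common median, probe sets averaged and the robust, trended eBayes. They turned for 19 of 33 in the 300 ng arrays alone, for 16 of 33 with the small RNA score and for 8 of 33 with array weights, all among values that had not passed. The number of pairs past the test by r was 15 over CTX 4h arrays, and lay between 13 and 16 over native arrays with the sets removed, with each input alone, without native replicates 8 and 19, without the 2 farthest arrays, with a common median and with probe sets averaged. In the 7 native arrays numbered from 1 it was 7 of 19. Cd3e minus Nkg7 differed by 0.52 in the 100 ng arrays alone, 0.45 after quantile normalization and 0.44 without native replicates 8 and 19. Dim genes such as Ncr1 and Trat1 lie where the deposited values are compressed, and 21 of the 33 genes lay above the median level of all genes. The 2 CTX 4h arrays at 300 ng limit every statement on that set.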

Other observations

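Among the 64 further T-cell and NK-cell genes, 2 passed in the 2 CTX 4h arrays against the 17 native arrays at 300 ng, against 1.04% of all genes. Pdcd1, which encodes the inhibitory receptor PD-1, was higher by 1.49 ± 0.38 (SE, limma adjusted p = 0.0314), and Ccl4, a chemokine gene that macrophages also express, by 1.04 ± 0.20 (SE, adjusted p = 0.00308). Over all arrays Pdcd1 had a lowest, median and highest level of 5.73, 6.63 and 8.62 in CTX 4h arrays and of 5.92, 6.5 and 7.51 in native arrays. Ccl4 read 5.66, 6.03 and 7.06 in CTX 4h arrays and 5.51, 5.95 and 6.73 in native arrays. The effect at 300 ng exceeded the mean effect at 100 ng by 1.04 ± 0.22 for Ccl4 (SE, limma adjusted p = 0.0475) and by 1.35 ± 0.42 for Pdcd1, which did not pass (SE, adjusted p = 0.256). Pdcd1 moved with Cd3e at r = 0.70 over CTX 4h arrays and 0.61 over native arrays, and Ccl4 at 0.19 and -0.09. At 300 ng the macrophage list had 13 of 13 genes above 0, against 39.2% of all genes, with a median of 1.19. The part of macrophages in these values was not tested.

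The salivary gland list, read as a marker of tissue taken with the node, had Amy1 and Bpifa2 higher in CTX 4h arrays by 2.41 and 2.87 (limma adjusted p = 0.0466 and 0.0467). At 300 ng the list ran the other way, with a median of -0.30 and 2 of 9 genes above 0, against 39.2% of all genes. The effect at 300 ng minus that at 100 ng was -4.37 for Bpifa2 (limma adjusted p = 0.536). Native arrays themselves differed by input, by 4.67 for Bpifa2 and 3.64 for Amy1 at 300 ng minus 100 ng (adjusted p = 0.00657 and 0.0118). Its score moved with Cd3e at r = -0.08 over CTX 4h arrays and 0.27 over native arrays.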
